A study of Mus musculus with 36 samples.

Results

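The 29 genes described here encode the machinery and the lipid-oxidising enzymes of the peroxisome, and all 29 were found by gene symbol among the 23352 entries that both FPKM tables list. They were 12 peroxins (Pex genes) and 17 transporters and enzymes. The 36 RNA-seq libraries came from the apex of hearts of male C57BL/6J mice aged 11 to 12 weeks, 18 labelled KLF15 KO (cK15) and 18 from controls that carry the alpha-MHC cre transgene, whose promoter is active in heart muscle cells. Hearts were taken every 4 h around the clock, at 6 times that began at 12 am, and each genotype has 3 libraries at each time; the labels describe animals housed with 12 h of light and 12 h of darkness a day. Klf15 encodes a Kruppel-like zinc-finger transcription factor. The labels name neither the Klf15 allele nor a cre transgene in the cK15 hearts, and they do not say whether each library is a different animal, so p-values measure the spread between libraries, which may be technical.

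Peroxisomes are small organelles without a genome, whose matrix enzymes are made in the cytosol and imported by peroxins. They shorten very long, branched and dicarboxylic fatty acids, and pass the shortened products to mitochondria; the first oxidation step makes hydrogen peroxide, which catalase removes. In liver, many peroxisomal oxidation genes are known targets of the fatty acid receptor PPAR-alpha. In heart, mitochondria carry out most fatty acid oxidation.

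Values are FPKM, which scale fragments to gene length and library total. Tests used limma on log2(FPKM + 1) with Benjamini-Hochberg adjustment over all 10599 genes that averaged 1 FPKM or more, and an adjusted p under 0.05 was called. Of the 29 genes 26 entered the tests; Pex11a (mean 0.995 FPKM over all libraries), Pex26 (0.528) and Acaa1b (0.215) lay below the limit. The added 1 makes the fold changes of genes with low FPKM smaller than they are on the FPKM scale itself. Klf15 itself was between 0.406 and 2.91 FPKM in control libraries, and 13 of the 18 cK15 libraries list it at 0, with 0.326 the highest of the others. Within every group, 1 of the 3 libraries stood apart. In these 12 the 10 most abundant genes took 16.1% to 17.7% of summed FPKM, against 21.7% to 25% in the other 24, and both genotypes held 6 of them. In bulk tissue, fewer cells of a type and less RNA per cell cannot be told apart.

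Several enzymes of peroxisomal oxidation were lower in cK15 hearts, while most peroxins did not pass the test. Averaged over the 6 times, 11 of the 26 tested genes fell and 0 rose; over all genes tested, 7.18% fell and 4.06% rose. The 11 were Ehhadh, Ech1, Decr2, Eci2, Acaa1a, Scp2, Cat, Abcd3, Hsd17b4 and the peroxins Pex6 and Pex16. Among the 10 peroxins tested 2 fell, and among the 16 transporters and enzymes 9 fell. These groups were not tested against each other. The median log2 fold change of the 26 was -0.072, against -0.012 over all genes tested. Rescaling the libraries moved the split over all genes from 761 lower and 430 higher to 658 and 565 (median-ratio) or 605 and 635 (quantile), and both left 10 members lower and 0 higher. With each replicate series of a genotype as a random block, Ehhadh, Ech1, Eci2, Acaa1a and Scp2 still passed, while lower calls over all genes became 252 of 10599 (2.38%). The limma adjusted p rose to 0.141 for Cat, 0.190 for Decr2, 0.201 for Pex16, 0.210 for Pex6, 0.396 for Abcd3 and 0.402 for Hsd17b4.

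**Figure D1:**
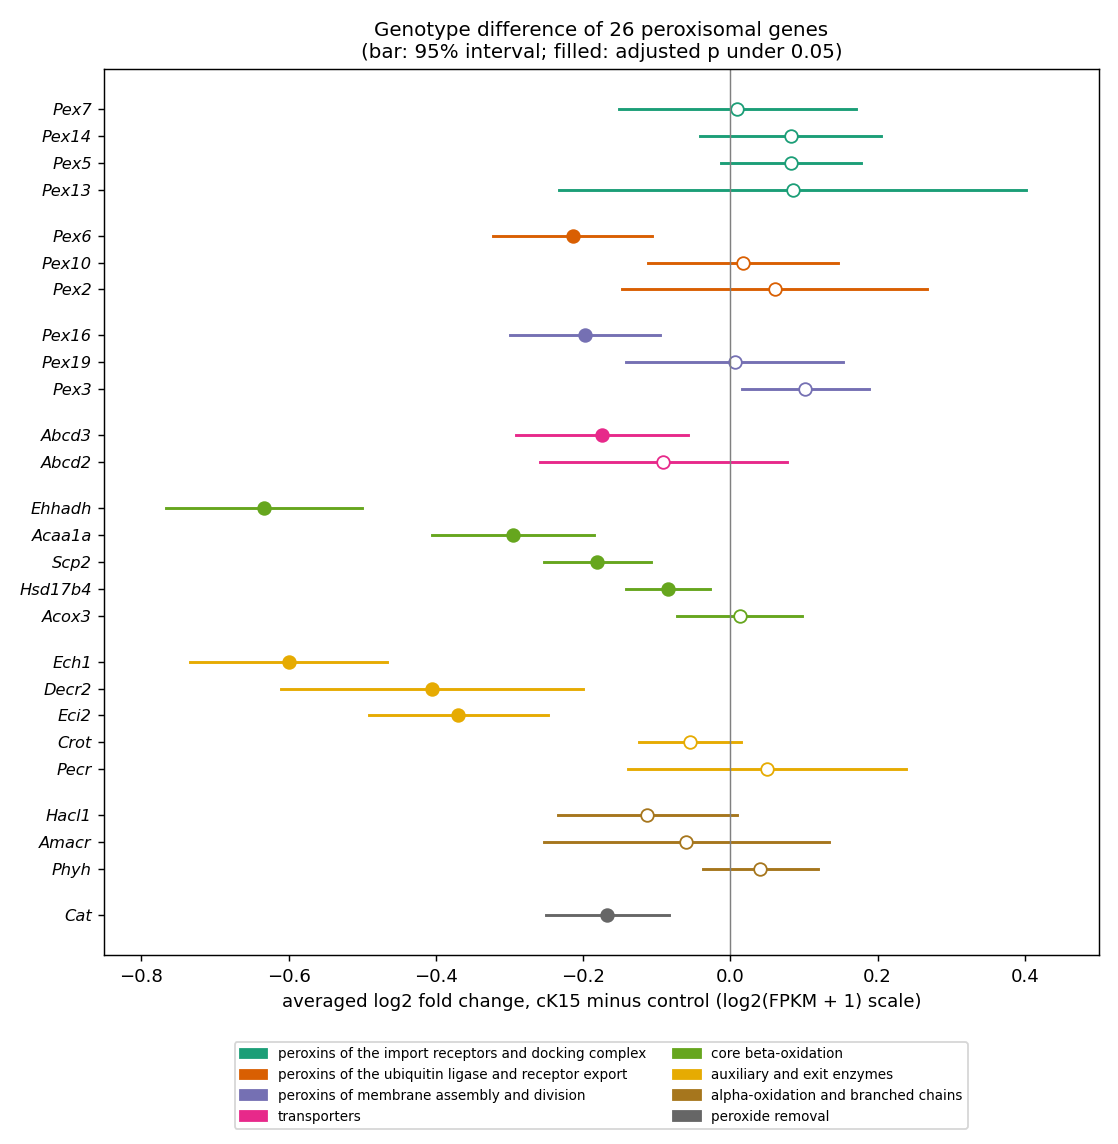
Averaged log2 fold change (cK15 minus control, log2(FPKM + 1) scale, horizontal axis) of the 26 tested genes grouped by role, with 95% intervals; filled points passed the threshold. Ehhadh (-0.63) and Ech1 (-0.60) lie farthest to the left, and the import and docking peroxins lie around 0.

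The sequences before the start sites of the 4 genes with the largest called changes, picked by size of change, are printed as description. They are the 250 bases upstream of the RefSeq start on GRCm38.p6, 5′ to 3′ on the gene's strand. GENCODE places some starts elsewhere. By the GENCODE positions given below, the Eci2 window lies inside the gene. The Ech1 and Decr2 windows reach past the GENCODE start of the gene, and all their marked boxes lie beyond that start. Capitals mark CACCC boxes and GC boxes (GGGCGG) on either strand, the letters that Kruppel-like and Sp factors are known to bind. Ehhadh lies at chr16:21787835-21788084 on the minus strand, Ech1 at chr7:28825088-28825337 on the plus strand, Eci2 at chr13:34994145-34994394 and Decr2 at chr17:26090165-26090414, both on the minus strand.
Ehhadh: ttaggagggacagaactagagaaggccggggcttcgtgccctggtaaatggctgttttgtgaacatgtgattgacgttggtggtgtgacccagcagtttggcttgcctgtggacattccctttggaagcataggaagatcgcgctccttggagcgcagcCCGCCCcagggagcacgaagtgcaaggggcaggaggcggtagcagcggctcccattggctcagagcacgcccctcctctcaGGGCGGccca
Ech1: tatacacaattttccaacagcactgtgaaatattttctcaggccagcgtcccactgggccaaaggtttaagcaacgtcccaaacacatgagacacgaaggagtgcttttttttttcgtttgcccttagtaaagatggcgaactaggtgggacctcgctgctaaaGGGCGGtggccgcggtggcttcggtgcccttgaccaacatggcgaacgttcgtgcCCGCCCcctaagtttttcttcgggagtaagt
Eci2: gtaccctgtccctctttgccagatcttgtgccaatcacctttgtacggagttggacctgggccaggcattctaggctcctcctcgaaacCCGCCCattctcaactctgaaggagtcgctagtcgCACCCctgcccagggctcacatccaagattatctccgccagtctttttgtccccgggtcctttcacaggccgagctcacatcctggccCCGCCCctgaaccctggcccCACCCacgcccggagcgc
Decr2: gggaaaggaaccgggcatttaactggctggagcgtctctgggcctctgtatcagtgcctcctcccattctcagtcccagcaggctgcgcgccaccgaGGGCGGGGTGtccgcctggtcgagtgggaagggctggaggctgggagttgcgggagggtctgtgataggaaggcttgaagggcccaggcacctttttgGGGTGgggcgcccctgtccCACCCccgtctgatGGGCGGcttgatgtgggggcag

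All 4 windows held 2 GC boxes. Eci2 had 2 CACCC boxes and Decr2 had 3, while Ehhadh and Ech1 had none in these windows. Start sites of 24 members were in the promoter table. A GC box occurred in 17 of the 24 (70.8%), against 32.7% of all 32851 promoters of the same length; it was present in 9 of 10 called and in 8 of 11 tested but uncalled genes. CACCC occurred in 14 of 24 (58.3%; 52.0% of all), in 6 of the 10 called and in 8 of the 11 others. The nuclear receptor motif AGGTCA was found in Cat and Scp2 (14.0% of all promoters), and neither its direct repeat with 1 spacer base (0.0335% of all) nor the E-box CACGTG (6.02% of all) in any. Members were counted by gene, with a match in any listed promoter, while the 32851 promoters were counted singly and were not limited to genes tested here. The 2 kinds of share are therefore not like for like. Both strands were searched, and a CACCC box may overlap a GC box, as it does once in Decr2. Such matches describe letters and are not evidence of binding.

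Ehhadh and Ech1 had the largest changes. Ehhadh, the bifunctional enzyme that carries out the hydratase and dehydrogenase steps of peroxisomal beta-oxidation, ranged from 3.21 to 5.87 FPKM in control (median 4.70) and from 1.86 to 3.46 in cK15 (median 2.62). All 18 cK15 libraries lay below the control median and 16 below every control library; 1 control library reached into the cK15 range. The mean fell from 4.68 ± 0.733 in control to 2.66 ± 0.487 FPKM in cK15 (SD, n = 18 per genotype; log2 fold change -0.63, SE 0.065; limma adjusted p = 1.68e-08). Ech1, a dienoyl-CoA isomerase of unsaturated fatty acid breakdown found in peroxisomes and mitochondria, ranged from 2105 to 3496 FPKM in control (median 2495) and from 1351 to 2232 in cK15 (median 1804). Again 16 cK15 libraries lay below every control library, and the ranges overlapped by 1 control library. Its mean fell from 2702 ± 399 in control to 1783 ± 252 FPKM in cK15 (SD, n = 18 per genotype; -0.60, SE 0.065; limma adjusted p = 5.38e-08). Ehhadh lies on chromosome 16 at 21761287 to 21787807 and Ech1 on chromosome 7 at 28825217 to 28832247 (GRCm38).

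Eci2 and Decr2, which also deal with the double bonds of unsaturated fatty acids, were lower as well. Eci2, an enoyl-CoA isomerase on chromosome 13 at 34977748 to 35027096, ranged from 197 to 321 FPKM in control (median 262) and from 157 to 239 in cK15 (median 207). All 18 cK15 libraries were below the control median, and 3 control libraries lay within the cK15 range. The mean fell from 267 ± 33.3 in control to 206 ± 23.6 FPKM in cK15 (SD, n = 18 per genotype; -0.37, SE 0.059; limma adjusted p = 4.27e-05). Decr2, the peroxisomal dienoyl-CoA reductase on chromosome 17 at 26081208 to 26090337, spread more widely, from 9.67 to 18.2 FPKM in control (median 12.5) and from 5.85 to 15.2 in cK15 (median 9.56). The groups overlapped broadly: 14 control libraries were below the highest cK15 library, and 10 cK15 libraries were below every control library. Its mean fell from 13.5 ± 2.55 in control to 10.1 ± 2.79 FPKM in cK15 (SD, n = 18 per genotype; -0.41, SE 0.10; limma adjusted p = 0.00641). The Decr2 call was lost without cK15 replicate 3 (limma adjusted p = 0.083) and without control replicate 2 (0.0631). Control replicate 2 stood apart at every time but 8 pm, so leaving it out makes the libraries that stood apart unequal between genotypes. Decr2 changed by -0.45 (SE 0.056) within the 24 other libraries and by -0.32 (SE 0.10) within the 12 that stood apart.

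**Figure D2:**
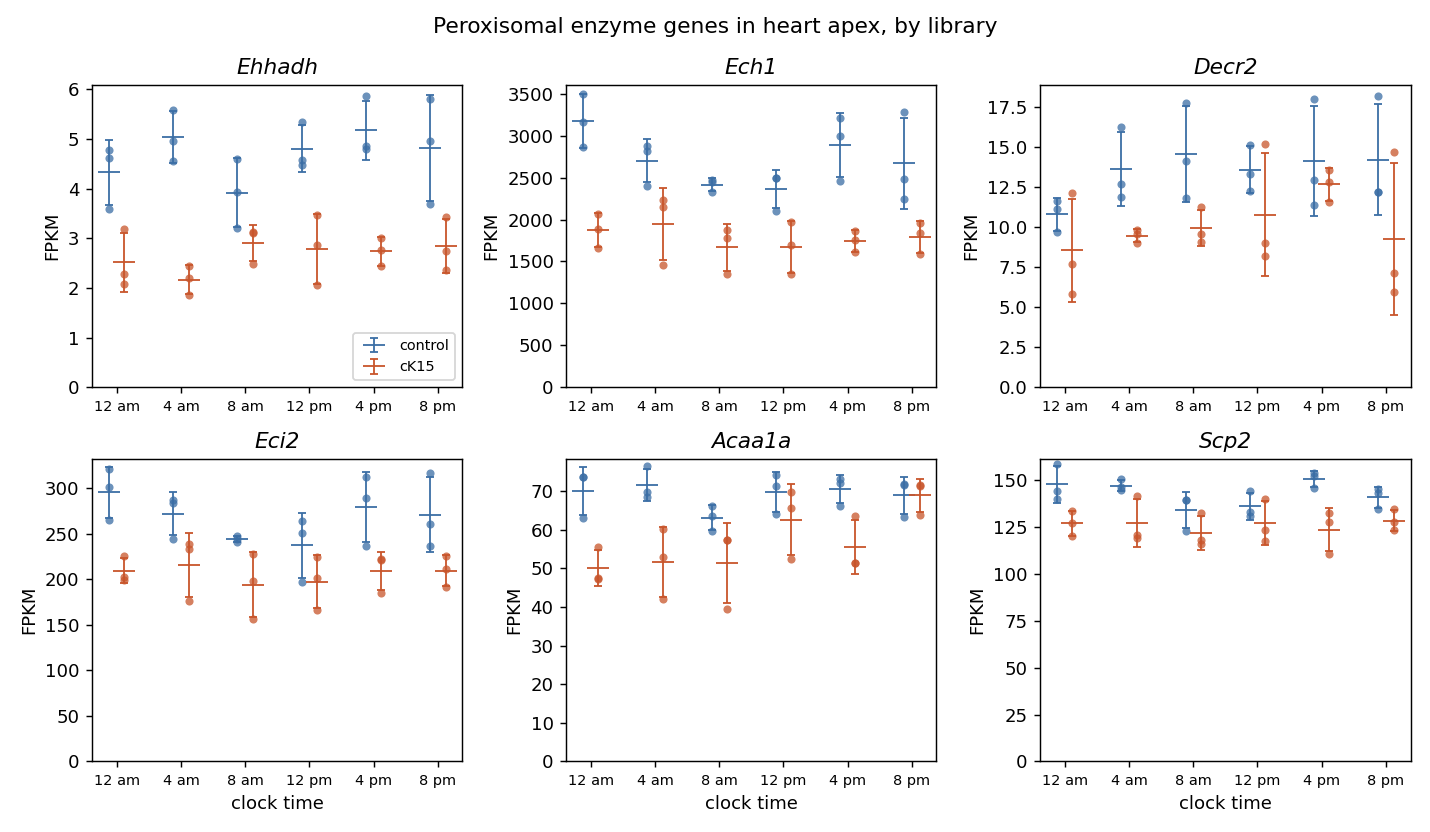
FPKM of 6 enzyme genes (vertical axes from 0) by clock time (horizontal axis) in control and cK15 hearts; points are libraries, bars the mean ± SD of 3. For Ehhadh and Ech1 the 3 cK15 libraries lie below the 3 control libraries at all 6 times, while Acaa1a overlaps at 12 pm and 8 pm.

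The other 2 enzymes of this group did not pass. Pecr, a reductase of enoyl-CoA chains, was at 9.62 ± 2.03 and 9.94 ± 1.70 FPKM in control and cK15 (SD, n = 18 each; 95% interval of the log2 fold change -0.14 to 0.24). Crot, the octanoyltransferase that readies shortened chains for export, was at 44.2 ± 3.52 and 42.5 ± 3.34 FPKM (SD, n = 18 each; -0.12 to 0.015).

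Along the core beta-oxidation sequence the changes were unequal in size. Of 6 genes 5 were tested and 4 fell. Acox3, an oxidase of branched chains, was at 12.0 ± 0.983 FPKM in control and 12.1 ± 0.821 in cK15 (SD, n = 18 each), with a 95% interval of -0.072 to 0.097. The second bifunctional enzyme, Hsd17b4, which handles branched chains, fell from 133 ± 7.25 in control to 125 ± 5.12 FPKM in cK15 (SD, n = 18 per genotype; -0.084, SE 0.028; limma adjusted p = 0.0483). This small change missed the threshold under 12 of the 17 alternatives. It did so with the replicate number as a fixed term (limma adjusted p = 0.105), and when any of 5 of the 6 replicate series was left out (limma adjusted p between 0.0595 and 0.314). The thiolase Acaa1a, which cuts the shortened chain, ranged from 59.7 to 76.4 FPKM in control (median 70.4) and from 39.5 to 71.5 in cK15 (median 56.4), and 11 cK15 libraries lay below every control library. It changed by -0.30 (SE 0.054; limma adjusted p = 0.000249). Scp2, whose longer product is a thiolase for branched chains and whose shorter product binds sterols, ranged from 123 to 159 FPKM in control and from 111 to 142 in cK15. All 18 cK15 libraries were below the control median of 144, and Scp2 changed by -0.18 on the log2 scale (SE 0.036; limma adjusted p = 0.000654).

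Some of these counts could be shared with near copies. In the GENCODE transcripts, 32.2% of the 100-base windows of the longest Scp2 transcript also occur in the pseudogene Scp2-ps2, and 22.6% of those of Acaa1b occur in Acaa1a. Acaa1b, the second thiolase gene, was listed at 0 in 9 control and 6 cK15 libraries and reached 0.617 and 1.54 FPKM. Of Hacl1, 47.8% of windows occur in Gm49387, a gene annotated over the same place and strand. Acaa1a on chromosome 9 (119339676 to 119350299) and Pex16 on chromosome 2 (92374676 to 92381217) overlap genes on the opposite strand, Myd88 and Slc22a14 for Acaa1a and Large2 for Pex16. Ehhadh (Gm24898), Eci2 (Gm16984) and Scp2 (Mir6397) do so too, and the sources used here do not say whether counting used strand. Of the called genes, Scp2 (Podn), Pex6 (Gm26904), Hsd17b4 (Cd63-ps) and Abcd3 (Gm43609 and 4633401B06Rik) overlap genes on their own strand, which strand cannot separate. Cat, Ech1 and Decr2 overlap no annotated gene.

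Transport and peroxide removal moved by small amounts. Abcd3, the abundant membrane transporter of branched and dicarboxylic acyl-CoA, ranged from 87.0 to 130 FPKM in control and from 79.1 to 114 in cK15, with wide overlap; it changed by -0.17 (SE 0.057; limma adjusted p = 0.0442). The Abcd3 call was lost in 8 of 17 settings. Among them were the fit with the replicate number as a fixed term (limma adjusted p = 0.0839) and those without cK15 replicate 3 (0.139), cK15 replicate 4 (0.221), control replicate 2 (0.256) or control replicate 3 (0.0844). Abcd2, a transporter of very long chains, was at 1.77 ± 0.386 and 1.6 ± 0.407 FPKM (SD, n = 18 each; 95% interval -0.26 to 0.077). Cat, catalase, ranged from 141 to 200 FPKM in control (median 165) and from 119 to 170 in cK15 (median 148), and 16 cK15 libraries were below the control median. Catalase changed by -0.17 (SE 0.041; limma adjusted p = 0.00611), a call lost without cK15 replicate 4 (limma adjusted p = 0.0632) and without control replicate 2 (0.0802). For Abcd3 and Cat too, leaving out control replicate 2 makes the libraries that stood apart unequal between genotypes.

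Alpha-oxidation trims methyl-branched chains such as phytanic acid before beta-oxidation. Of its genes Phyh and Hacl1 and the branched-chain gene Amacr, 0 of 3 were called by limma, and 0 of 3 had an unadjusted p under 0.05. Phyh, which hydroxylates phytanoyl-CoA, was the most abundant member after Ech1, between 640 and 826 FPKM in control and between 622 and 846 in cK15, and its 95% interval was -0.038 to 0.12. The lyase Hacl1 was at 11.6 ± 1.5 and 10.6 ± 1.32 FPKM (SD, n = 18 each; -0.23 to 0.0093) and the racemase Amacr at 7.83 ± 1.63 and 7.45 ± 1.48 (SD, n = 18 each; -0.25 to 0.13).

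Peroxins of import and docking did not pass. The import receptors Pex5 and Pex7 and the docking proteins Pex13 and Pex14 had log2 fold changes between 0.0093 and 0.085, and 0 of 4 passed (limma; 0 at unadjusted p under 0.05). The intervals of the 4 reached from -0.23 to 0.40, the widest for Pex13. In this fit a moderate change of Pex13 in either direction lies within its error (SE 0.15). With a term for the libraries that stood apart, the Pex13 estimate stayed at 0.085 and its SE was 0.061. Of the ubiquitin ligase subunits that let receptors be recycled, Pex2 (0.060, SE 0.10) and Pex10 (0.017, SE 0.063) did not pass. Pex6, the ATPase that pulls Pex5 out of the membrane, fell from 14.4 ± 1.5 in control to 12.3 ± 1.62 FPKM in cK15 (SD, n = 18 per genotype; -0.21, SE 0.053; limma adjusted p = 0.00643). Among control libraries Pex6 ranged from 12.0 to 17.2 FPKM and among cK15 libraries from 8.71 to 15.6, with 16 of 18 below the control median. Without control replicate 4 its adjusted p was 0.0547 (limma).

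For peroxins of membrane assembly, Pex16, which helps place membrane proteins, fell from 36 ± 3.73 in control to 31.4 ± 3.80 FPKM in cK15 (SD, n = 18 per genotype; -0.20, SE 0.050; limma adjusted p = 0.00781). The Pex16 call was lost without cK15 replicate 4 (limma adjusted p = 0.0593) and without control replicate 4 (0.0695). Its partner Pex3 was higher in cK15 on average at 6 of 6 times but did not pass (31.7 ± 2.18 and 34.2 ± 3.21 FPKM, SD, n = 18 each; 0.10, SE 0.042; limma adjusted p = 0.129), and passed only without cK15 replicate 4 (0.0478). Pex19, the chaperone of membrane proteins, was at 56.1 ± 8.07 and 56.3 ± 7.88 FPKM (SD, n = 18 each; 95% interval -0.14 to 0.15).

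Pex11a, which drives peroxisome elongation and division, was just under the limit for testing. It ranged from 0.538 to 3.11 FPKM in control (median 1.15) and from 0 to 2.05 in cK15 (median 0.536), with 4 cK15 libraries listed at 0. In the fit without a filter it was lower in cK15 (log2 fold change -0.47, SE 0.13; limma adjusted p = 0.0338 over 18844 genes), and its cK15 mean was below its control mean at 6 of 6 times. Because it entered that fit through values near 0, the size is uncertain. Pex26, which anchors Pex6 at the membrane, was at 0.495 ± 0.203 and 0.561 ± 0.272 FPKM (SD, n = 18 each).

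Ehhadh and Ech1 were lower in cK15 at every time. All 3 cK15 libraries lay below all 3 control libraries at 6 of 6 times for these genes, which holds for 0.934% of genes tested. The same was seen at 5 times for Eci2 and at 4 for Acaa1a, so that 4 of 26 members reached 4 or more times, against 2.13% of all genes. At single times, calls were fewer: Ech1 at 12 am and 4 pm, Ehhadh at 4 am and 4 pm, and none at 8 am, 12 pm or 8 pm (limma; 5, 3 and 6 members at an unadjusted p under 0.05). Over all genes tested, lower calls were 1.09% at 12 am, 0.962% at 4 am, 0.887% at 8 am, 0.698% at 12 pm, 1.1% at 4 pm and 0.887% at 8 pm. With all times pooled, no member had its 18 cK15 libraries all below its 18 control libraries, which 0.604% of genes showed, or all above (0.0189%).

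At 4 am Ehhadh was at 4.96, 5.59 and 4.55 FPKM in control replicates 2, 3 and 4 and at 2.45, 1.86 and 2.21 in cK15 replicates 1, 3 and 4. The control libraries were all higher, and the difference was -0.93 on the log2 scale (SE 0.16; limma adjusted p = 0.000593), the largest of any member at any time. At 8 am Ehhadh differed least (-0.33, SE 0.16; limma adjusted p = 0.665). Ech1 at 12 am was at 2864, 3496 and 3162 FPKM in control and 1664, 1883 and 2070 in cK15 (-0.76, SE 0.16; limma adjusted p = 0.00593). For Acaa1a the difference ran from -0.48 at 4 am to 0.00019 at 8 pm, when control libraries were at 71.6, 63.4 and 71.7 FPKM and cK15 libraries at 71.5, 63.9 and 71.3. The genotype by time interaction was called in 0 of 26 members (limma; 0 at an unadjusted p under 0.05; 0.00943% of all genes), with Acaa1a the lowest at an unadjusted p of 0.11.

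**Figure D3:**
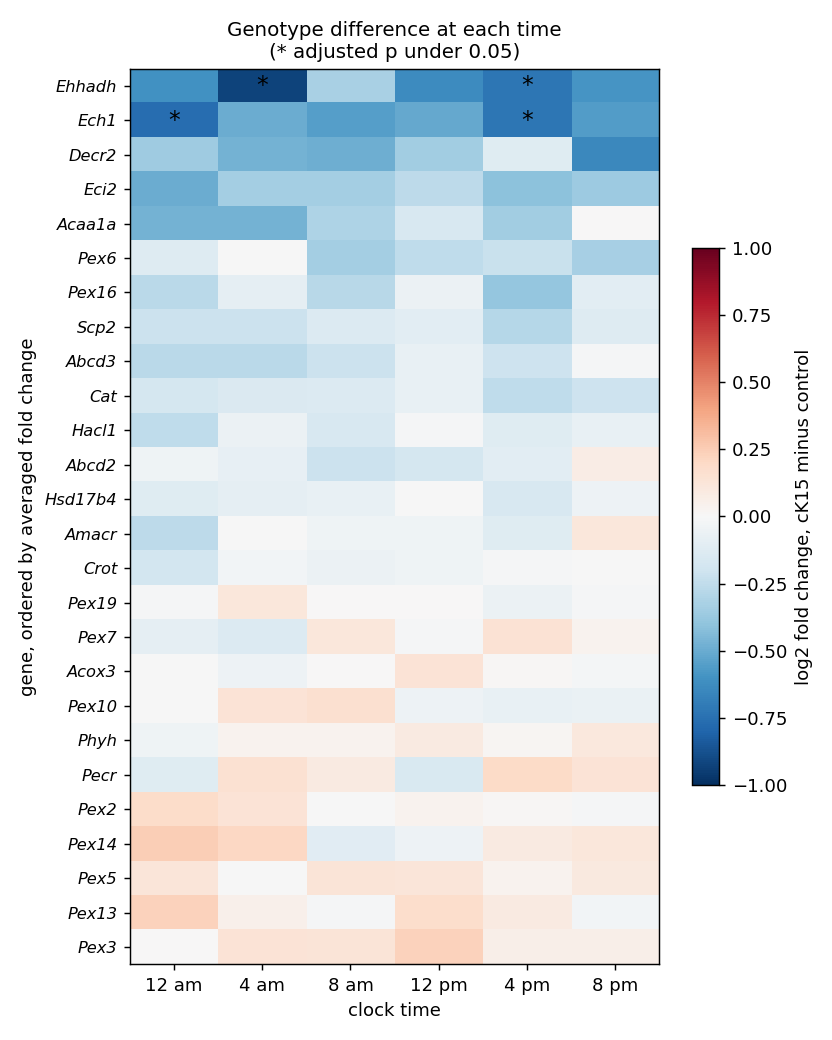
Log2 fold change (cK15 minus control, colour) of the 26 tested genes (rows, ordered by the averaged value) at 6 clock times (columns); stars mark adjusted p under 0.05. Ehhadh and Ech1 are blue at every time, and the 4 stars fall at 12 am, 4 am and 4 pm.

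A 24 h rhythm was not called for any member in either genotype (limma; 4 members in control and 1 in cK15 at an unadjusted p under 0.05), where 2.80% of all genes were rhythmic in control and 1.08% in cK15. Amplitudes, from the mean of the fitted curve to its peak, had a median of 0.082 log2 in control and 0.087 in cK15, against 0.092 and 0.084 over all genes. Catalase came closest in control, with an amplitude of 0.15 (SE 0.040; limma adjusted p = 0.116) and a fitted peak at 20.4 h of the clock. Its control means were 181, 162, 148, 155, 181 and 177 FPKM from 12 am to 8 pm. It passed with a term for the library set (limma adjusted p = 0.00531), with median-ratio rescaling (0.0449) and with the replicate number as a fixed term (0.0334). The rhythm differed between genotypes in 0 of 26 members (limma, with 0 at an unadjusted p under 0.05). It was called in 0 of all 10599 genes tested, so the 0 among members is not particular to them.

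The genotype difference was also fitted within the 24 libraries and within the 12 that stood apart. All 11 called genes were lower in both sets. In the 24, 10 passed, with Hsd17b4 the exception, while over all 10599 genes tested 706 fell and 469 rose. The 12 hold 1 library per group and were fitted with additive genotype and time terms, so only effect sizes are given for them. The 11 genes were called on the same libraries, so the shared sign adds no independent support. Ehhadh changed by -0.65 (SE 0.086) in the 24 and by -0.60 (SE 0.089) in the 12, and Ech1 by -0.54 (SE 0.050) and -0.71 (SE 0.042).

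**Figure D4:**
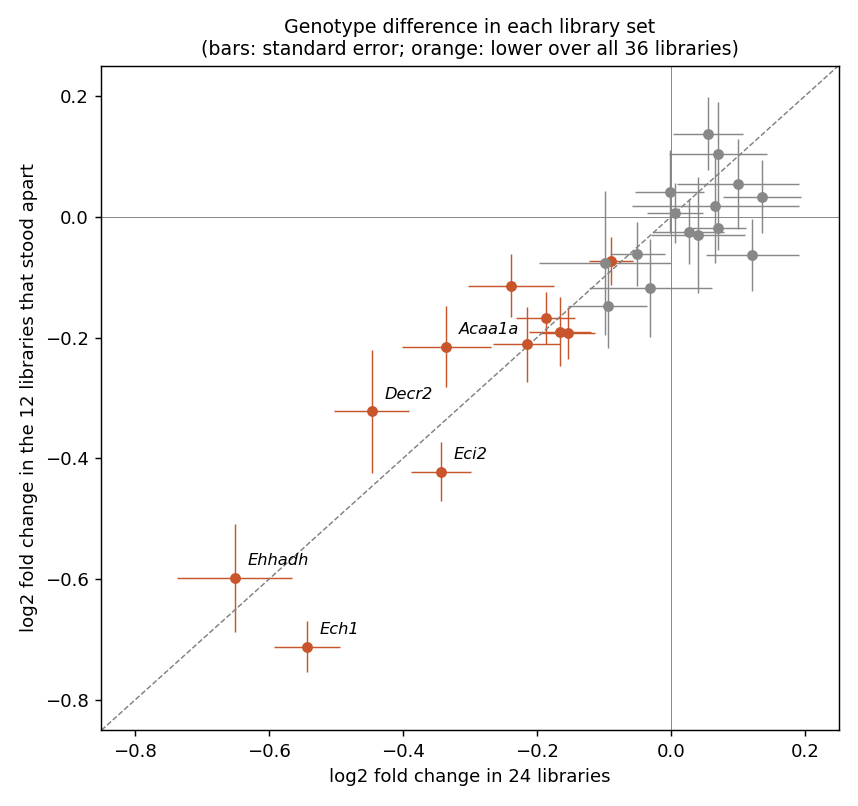
Log2 fold change (cK15 minus control) of the 26 tested genes in the 24 libraries (horizontal axis) and in the 12 that stood apart (vertical axis), with standard errors; the dashed line marks equal values. Orange points, the 11 called over all libraries, are below 0 on both axes.

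Other peroxisomal genes, from lists outside the 29, included several with larger changes. Of 6 further tested peroxins and division genes 0 passed (median 0.076), and of 4 genes of ether lipid synthesis 0 passed (median 0.021). Of 13 further genes of lipid oxidation and transport 5 fell and 0 rose (median -0.10). The CoA diphosphatase Nudt7 fell by 0.30 and the malonyl-CoA decarboxylase Mlycd by 0.45. Of 13 other matrix and membrane proteins 4 fell and 0 rose (median -0.066), among them the glutathione transferase Gstk1 (-2.79, SE 0.057), the membrane channel Pxmp2 (-1.51, SE 0.064) and the epoxide hydrolase Ephx2 (-0.48, SE 0.055).

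Mitochondrial genes with related functions were lower too. Of 13 tested 9 fell and 0 rose, with a median of -0.31; Acaa2, the mitochondrial thiolase, changed by -0.68 (SE 0.068), the hydratase Echs1 by -0.59 (SE 0.045) and the carnitine carrier Slc25a20 by -0.58 (SE 0.045). Among 8 nuclear receptor genes and coactivators, which include Ppara, Ppargc1a alone passed, higher by 0.14 (SE 0.045; limma adjusted p = 0.043).

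Markers of other cells also differed between the genotypes. Of 6 tested fibroblast markers 6 were lower in cK15 (median -0.26; summed level 1509 to 1892 FPKM in control and 1274 to 1581 in cK15). Of 9 macrophage markers 7 were lower (median -0.24; 179 to 274 and 159 to 252 FPKM), of 7 endothelial markers 0 passed (median -0.10; 388 to 505 and 359 to 466 FPKM), and of 8 cardiomyocyte markers 1 was higher (median 0.078; 51659 to 99602 and 49874 to 109970 FPKM). Smooth muscle and pericyte markers had 1 of 5 lower (median -0.083), blood 0 of 3, and of 6 adipocyte markers the 1 tested, Cidea, was lower (-0.30; summed level 21.6 to 32.4 and 17.7 to 27.7 FPKM). Cidea made up most of the adipocyte sum, with means of 26.9 FPKM in control and 21.6 in cK15. Adipoq, Plin1, Cfd, Lep and Ucp1 each averaged at most 0.493 FPKM in either genotype. Of the marker lists no gene was at 0 in all libraries. The part of cell composition in the peroxisomal differences was not tested. Liver markers summed to at most 4.68 FPKM in control and 25.3 in cK15.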

How the data were processed

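Heart apex RNA was depleted of ribosomal RNA and sequenced as stranded total RNA, per the labels' protocols. The authors deposited FPKM per gene and library in a table for each genotype; GSNAP, HTSeq and mm10 were used, per the submitters' processing notes, while versions, what each tool did, the annotation and the FPKM program were not given in the sources used here. Depth is unknown, so no counting interval is given; FPKM summed to between 534040 and 691580 per library. The tables were compared as deposited. limma 3.58.1 in R 4.3.3 was run on log2(FPKM + 1) with a mean-variance trend and robust moderation, for the 10599 genes averaging 1 FPKM or more, with 12 group means for genotype and a cosine and sine of clock hour (24 h period) for rhythm. The scripts were tested on simulated data.

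The members, their role groups and the other gene lists were chosen with earlier results of these data known. All members are named; values of other genes follow a rule of at most 3 called genes of smallest adjusted p per list, and 1 gene that the rule names is not reported here. Replicate numbers 3 and 4 occur in both genotypes. Deviations from the group mean correlated in every one of the 12 same-numbered pairs (r across genes 0.157 to 0.508). The replicate block with the number as a fixed term therefore pairs these numbers between genotypes. The block as a random series does not, as it treats each genotype and number as its own block. Crossed pairs of 3 and 4 had r of -0.275 to 0.153. Every same-numbered pair also lies in 1 library set, and pairs of 1 set with other numbers had r of 0.0016 to 0.540, so number and library set are partly mixed. Within the set that holds 3 and 4 at the 5 times before 8 pm, same-numbered pairs had r of 0.196 to 0.313 and crossed pairs 0.0016 to 0.153. Gene positions are from GENCODE on GRCm38 and promoters from RefSeq on GRCm38.p6. Alternatives were other pseudocounts, filters and scalings, moderation, a term for the library set, replicate blocks and leaving out each replicate number at all times.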

Additional observations from a re-analysis of the deposited data

How the results depend on the processing

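Of the 11 called genes, 5 (Ehhadh, Ech1, Eci2, Acaa1a and Scp2) passed in every alternative run that tested them, and all 11 stayed lower in every such run. Ehhadh, with a mean of 3.67 FPKM, was tested in 16 of the 17 alternatives, as the filter at a mean FPKM of 5 left it out. The count of 11 became 5 with the replicate block as a random series (each genotype and number a block, correlation 0.218), where lower calls over all genes went from 761 to 252, and 7 to 10 when a replicate was left out, with 1 higher gene (Pex3) without cK15 replicate 4; the replicate block with the number as a fixed term gave 9 (717 over all genes), losing Hsd17b4 and Abcd3. The 4 calls at single times became 2 with a mean FPKM of at least 5, where Ehhadh was not tested. They became 8 with quantile normalization, 21 with a term for the library set, and 1 to 7 without single replicates. Calls over all genes at single times are not given for these settings. With the set term the averaged count of members stayed at 11, while averaged lower calls over all genes went from 761 to 1264. When a replicate was left out, averaged lower calls over all genes were between 523 and 849. Rhythmic genes in control rose from 0 to 1 (Cat) with median-ratio rescaling, the set term and the replicate number as a fixed term. Among uncalled genes some signs changed: to -0.0032 for Pex10 with the replicate block as a fixed term, and to -0.022 with it and -0.0019 in the 24 libraries for Acox3. Leaving out replicates gave ranges that cross 0 for Pex2 (-0.059 to 0.22), Pex7 (-0.074 to 0.11), Pex13 (-0.12 to 0.31), Pex19 (-0.082 to 0.092), Acox3 (-0.016 to 0.048), Phyh (-0.027 to 0.081), Amacr (-0.14 to 0.052), Abcd2 (-0.15 to 0.0085) and Pecr (-0.065 to 0.19). At every time but 8 pm, cK15 replicate 1 and control replicate 2 were the libraries that stood apart. Leaving out either makes the library sets unequal between genotypes. Pex2, Pex7, Pex13 and Pex19 were higher in the library that stood apart in 12 of 12 groups. Pex13 changed by -0.12 without cK15 replicate 1 and by 0.31 without control replicate 2. Without control replicates 3 and 4 it changed by -0.021 and -0.031. The cause of the sign changes was not tested. Depth is unknown, and the widest errors were those of Pex13, Pex2 and Decr2.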

Other observations

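Within groups, the libraries that stood apart had higher values of some peroxins. Pex13 was higher in the 1 library that stood apart than in both others of its group in 12 of 12 groups, by 0.81 on average on the log2 scale, and so were Pex2 (0.49), Pex7 (0.39) and Pex19 (0.36); 9.64% of all genes tested did the same. Decr2 was higher in 11 of 12 groups (0.44), while Ech1 was lower in 10 (-0.27) and Eci2 in 11 (-0.25). Among the 26 tested genes the median difference was 0.10, against 0.078 over all genes.

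The order of levels was nearly kept between genotypes. In control, mean FPKM ran from 2702 for Ech1, 713 for Phyh and 267 for Eci2 down to 1.77 for Abcd2 among the tested genes, and the peroxins lay between 56.1 (Pex19) and 5.72 (Pex13). Hsd17b4 at 133 ± 7.25 and Scp2 at 143 ± 8.75 (SD, n = 18 each) were neighbours whose ranges overlapped.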
